A study of Mus musculus with 9 samples.

Results

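The genes described here encode the nuclear part of the mitochondrial respiratory chain in mouse embryonic stem cells: subunits of complexes I, III, IV and V and the electron carrier cytochrome c. They were chosen by symbol alone, as the rows of the deposited count table whose names begin with the usual roots of these subunits (Nduf with a, b, c, s or v and a number, Ndufab1, Uqcr, Cyc1, Cycs, Cox4 to Cox8 isoforms and Atp5). The rule uses no measured value, although it was set with earlier results of these data known. The rule found 83 of the 23366 named rows. RNA-seq counts were compared between 3 wild-type libraries (WT1, WT2 and WT3) and 3 Sirt6 knockout libraries (KO1, KO2 and KO3). Both groups were 129 SvJae F1 embryonic stem cells at passage 21, grown with serum and LIF, and Sirt6 encodes a histone deacetylase. The labels do not say whether the knockout is 1 clone or whether replicates were separate cultures, so each p-value reflects only how far these libraries differ, which may be technical. The study's glucose-deprived libraries were not analysed here. Levels are CPM, each gene's count relative to its library's size, with library sizes scaled by the trimmed mean of M-values (TMM). A gene was called when its adjusted p in edgeR's quasi-likelihood test was under 0.05, with Benjamini-Hochberg adjustment over all 14988 genes tested.

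Complex I takes electrons from NADH, complex III passes them from ubiquinol to cytochrome c, complex IV hands them to oxygen, and complex V (ATP synthase) uses the resulting proton gradient to make ATP. Each of these complexes joins nuclear-encoded subunits to a few encoded by mitochondrial DNA, and the latter were not analysed here. Pluripotent stem cells are known to draw much of their ATP from glycolysis while keeping a working respiratory chain. Some complex IV subunits exist as a general isoform and as isoforms typical of testis, muscle, heart or low oxygen.

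Promoters are shown for a few members because subunits from all 4 complexes shifted together from library to library, as described below, and because Cox8a and Cox6b2 had the smallest adjusted p among the members. The RefSeq promoter table (GRCm38.p6) held 65 of the 83 genes, 62 of them tested. Motifs known from respiratory genes were searched on both strands in the 250 bases before the start: the site of nuclear respiratory factor 1 (NRF1), a GC-rich palindrome whose letters stand in capitals below; CCGGAAG, an ETS core bound by factors such as GABP; and TGACGTCA, the cyclic AMP response element. The first was found in 10 of the 62 tested members (16.1%) and in 8.57% of the 10841 tested genes with a promoter. The ETS core was found in 11 members (17.7%) against 14.4%, and the cyclic AMP element in 5 (8.06%) against 2.97%. A gene counted as holding a motif when any of its listed promoters did. With each gene represented by its promoter of highest GC content, the median was 55.8% for the members and 61.2% for the tested genes. These matches are a description of letters in a window. The 200 bases before the start are printed on the gene's strand, 5′ to 3′, with each motif match in capitals. Cox8a and Cox6b2 held no match there, Cox6a1 held matches of the NRF1 and ETS motifs, Ndufa11 of the NRF1 motif and the cyclic AMP element, and Cycs of the cyclic AMP element. Cox6a1, Ndufa11 and Cycs were picked by no stated rule and do not stand for the set, as most tested members held no match. No promoter of complex III or V is printed. None of the marked stretches overlapped another.
Cox8a promoter, chr19:7217617-7217816, minus strand: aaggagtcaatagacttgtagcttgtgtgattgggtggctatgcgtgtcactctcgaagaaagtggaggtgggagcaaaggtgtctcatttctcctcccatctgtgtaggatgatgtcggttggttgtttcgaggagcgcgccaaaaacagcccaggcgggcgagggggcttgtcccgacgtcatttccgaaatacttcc
Cox6b2 promoter, chr7:4753095-4753294, minus strand: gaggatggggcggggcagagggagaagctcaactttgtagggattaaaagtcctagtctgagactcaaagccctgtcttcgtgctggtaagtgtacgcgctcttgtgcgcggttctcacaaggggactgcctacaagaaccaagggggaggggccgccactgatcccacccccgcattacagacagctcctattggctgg
Cox6a1 promoter, chr5:115348959-115349158, minus strand: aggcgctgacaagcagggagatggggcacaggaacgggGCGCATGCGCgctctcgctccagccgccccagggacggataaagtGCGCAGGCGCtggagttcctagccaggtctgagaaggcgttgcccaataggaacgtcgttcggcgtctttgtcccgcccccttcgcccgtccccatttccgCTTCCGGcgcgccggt
Ndufa11 promoter, chr17:56717562-56717761, plus strand: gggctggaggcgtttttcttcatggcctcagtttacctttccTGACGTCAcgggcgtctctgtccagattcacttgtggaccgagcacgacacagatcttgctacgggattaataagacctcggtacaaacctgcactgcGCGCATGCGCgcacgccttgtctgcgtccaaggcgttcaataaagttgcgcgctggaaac
Cycs promoter, chr6:50566570-50566769, minus strand: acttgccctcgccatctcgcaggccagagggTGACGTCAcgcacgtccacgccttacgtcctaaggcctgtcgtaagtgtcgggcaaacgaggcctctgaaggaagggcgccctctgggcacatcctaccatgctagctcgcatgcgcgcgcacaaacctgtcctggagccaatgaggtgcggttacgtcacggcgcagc

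Sirt6, the targeted gene, had 348, 341 and 342 counts in wild type and 12, 6 and 6 in the knockout, which is 13.5 ± 0.690 and 0.308 ± 0.0664 CPM (SD, n = 3 each). Total counts ran from 20107037 (KO3) to 29267115 (KO1). All 12 embryonic stem cell markers were detected and tested. Over all genes tested 27.8% were called lower and 27.9% higher in the knockout. Of the 12 markers 6 were called lower (Pou5f1, Nanog, Klf4, Utf1, Lin28a and Sall4) and 3 higher (Sox2, Tdgf1 and Dppa5a), with a median log2 fold change of -0.22. Their summed level, to which the abundant Dppa5a and Tdgf1 add much, was 6739 to 7321 CPM in wild type and 6894 to 8427 in the knockout. Summed fibroblast markers were 24.9 to 25.7 CPM in wild type and 68.4 to 71.2 in the knockout. Of 12 fibroblast markers 8 were tested and 7 of those called higher, against the 27.9% of all genes tested. Lum was at 0 in all 6 libraries and Postn at 0 in wild type. Summed muscle markers were 99.0 to 109.9 and 45.2 to 53.1 CPM (5 of 10 tested, with Actc1 at 0 in wild type). Ttn and Des, both called lower, add most to the muscle sum, while Acta1 and Myh6 were called higher. Summed primitive endoderm markers were 23.9 to 24.3 and 4.20 to 6.36 CPM (5 of 8 tested, with Ttr at 0 in all 6). In bulk RNA, fewer cells of a type and less RNA per cell cannot be told apart. The part of these other cell types in the results on the respiratory chain was not tested.

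Few respiratory chain genes differed between knockout and wild type by more than the spread between libraries. Of the 83 members, 78 passed the filter on low counts. Of these 8 were called higher in the knockout (10.3%, against 27.9% of all genes tested) and 7 lower (8.97%, against 27.8%). In either direction this makes 15 members, or 19.2%, against 55.7% of all genes tested. The called rises were Ndufa4l2, Cox6b2, Atp5s, Cox7a1, Ndufv3, Ndufc2, Cox7a2l and Ndufa12, from 1.27 down to 0.56 on the log2 scale. The called falls included Cox8a, Uqcrq, Ndufb3, Ndufa13, Ndufa10 and Ndufs1, from -1.48 to -0.26. The median log2 fold change was 0.11 over the 78 members, 52 of them above 0, and 0.01 over all genes tested. The knockout and wild-type libraries did not overlap for 14 members (17.9%, against 63.2% of all genes tested), 9 above (11.5%, against 31.2%) and 5 below (6.41%, against 32%).

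The 5 members that did not pass the filter were Ndufs5, listed at 0 in all 6 libraries, and Cox6a2, Cox7b2, Cox8b and Cox8c, isoforms known mainly from muscle or testis. In the order WT1 to WT3 and KO1 to KO3, Cox6a2 had 0, 0, 1, 2, 0 and 2 counts, and Cox8c had 0, 1, 0, 1, 1 and 3. Cox7b2 had 1, 6, 5, 10, 13 and 7 counts. Cox8b had 12, 8, 4, 4, 1 and 0 counts. Both of these were without overlap between the groups in CPM. In edgeR's test with no filter on low counts, Cox8b was called lower (log2 fold change -2.19, adjusted p = 0.0282) and Cox7b2 was not called (1.30, adjusted p = 0.0795). In the authors' deposited table Cox8b is listed with a log2 fold change of -1.38 and an adjusted p of 0.0381.

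The low share of calls went with a wide spread of the members among the knockout libraries. Set against each gene's mean log2 CPM in wild type, the median member stood at -0.11, 0.01 and 0.10 in WT1, WT2 and WT3, and at -0.36, 0.12 and 0.45 in KO1, KO2 and KO3. Respiratory chain RNA was thus low in KO1, near wild type in KO2 and high in KO3, while the median over all genes tested was close to 0 in every library. The median standard deviation of log2 CPM among the 3 knockout libraries was 0.45 for the members and 0.20 for all genes tested. Among the wild-type libraries it was 0.11 and 0.10. Summed over the 83 members, the level was 11443, 12394 and 13176 CPM in wild type and 10653, 13195 and 15774 CPM in the knockout. As a share of total counts with no further scaling it was 1.105%, 1.183% and 1.258% in wild type and 1.156%, 1.388% and 1.567% in the knockout, which puts KO1 inside the wild-type range on that scale. Atp5a1 and Atp5b weigh heavily in both sums, with 45887 and 77030 of the 338342 member counts in KO1. Without these genes the summed level was 8161.5, 8934.9 and 9505.6 CPM in wild type and 6782.8, 9333.4 and 11577 CPM in the knockout. The share of total counts was not computed without them.

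**Figure D1:**
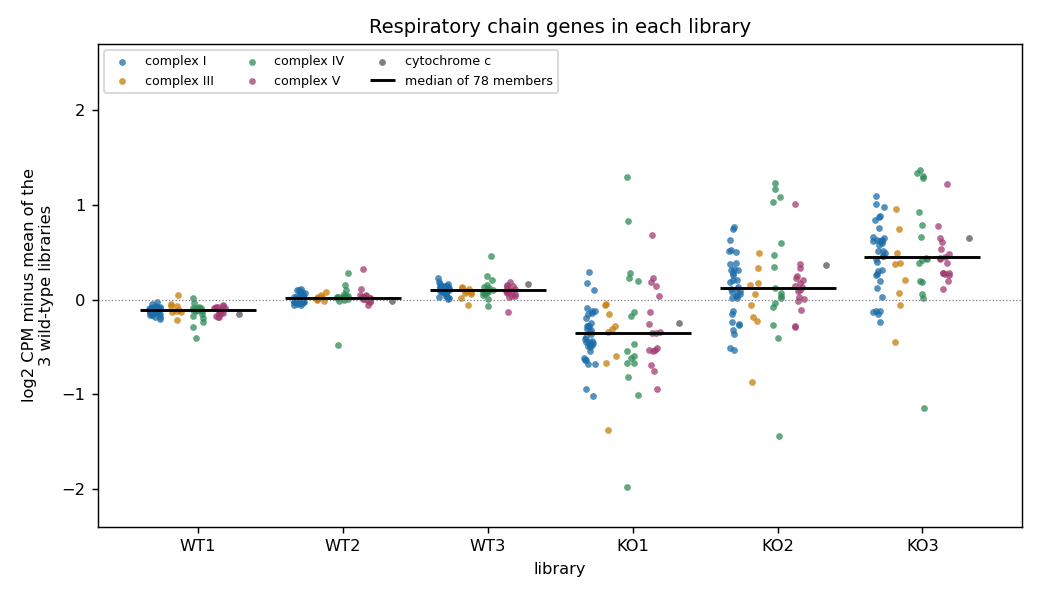
Each point is 1 of the 78 tested members in 1 library, as log2 CPM minus the gene's mean log2 CPM over the 3 wild-type libraries (vertical axis), coloured by complex, with the median member as a black line. The medians of KO1, KO2 and KO3 lie at -0.36, 0.12 and 0.45, and the wild-type medians between -0.11 and 0.10.

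This ordering of the knockout libraries was shared by nearly all members. KO1 was the lowest knockout library for 73 of the 78 members, with Atp5a1, Atp5sl, Ndufa4l2, Ndufv1 and Uqcrc1 as the exceptions. KO3 was the highest for 77, with Ndufs1 as the exception. For 72 members (92.3%) KO1 was lowest and KO3 highest, against 22.6% of all genes tested. KO1 lay below all 3 wild-type libraries for 60 members (76.9%, against 43.3%), and KO3 above all 3 for 67 (85.9%, against 44.3%). For 49 members (62.8%, against 6.73%) both held, so that the wild-type libraries lay between these knockout libraries. The ratio of KO3 to KO1 was at least 1.5 for 62 members (79.5%, against 10% of all genes tested). The difference KO3 minus KO1 had a median of 0.90 on the log2 scale over the members, with a range of 0.03 (Ndufa4l2) to 1.22 (Atp5e), and of -0.12 over all genes tested. WT1 was the lowest and WT3 the highest wild-type library for 64 members (82.1%, against 22% of all genes tested), over the narrower range given above. With 1 library on each side, KO3 against KO1 has no replicate check.

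The spread between KO1 and KO3 went with transcript length, which is short for most of these genes. Their median transcript was 685.5 bases against 2429 for all genes tested. The median KO3 minus KO1 of all genes tested was 0.53 for transcripts under 600 bases, 0.40 from 600 to under 1000, 0.10 from 1000 to under 2000, -0.18 from 2000 to under 4000 and -0.39 from 4000 on. The members lay above these medians in each of the classes they filled, at 0.996, 0.91, 0.59 and 0.22. Across the 78 members, Spearman's rho between length and KO3 minus KO1 was -0.66, and across the 14830 tested genes with a known length it was -0.55; genes within a library are not independent, and both are given as a description. When each library's trend of log2 CPM on transcript length and GC content was removed, the member medians of KO1, KO2 and KO3 became -0.33, 0.03 and 0.19. The median KO3 minus KO1 was then 0.50, and KO3 stayed above KO1 for 77 members. The libraries also differed in the share of counts taken by the ribosomal RNA gene Rn45s (9.09%, 9.23% and 7.54% in wild type and 4.91%, 3.30% and 3.71% in the knockout) and in depth, and the part of these in the member pattern was not tested.

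**Figure D2:**
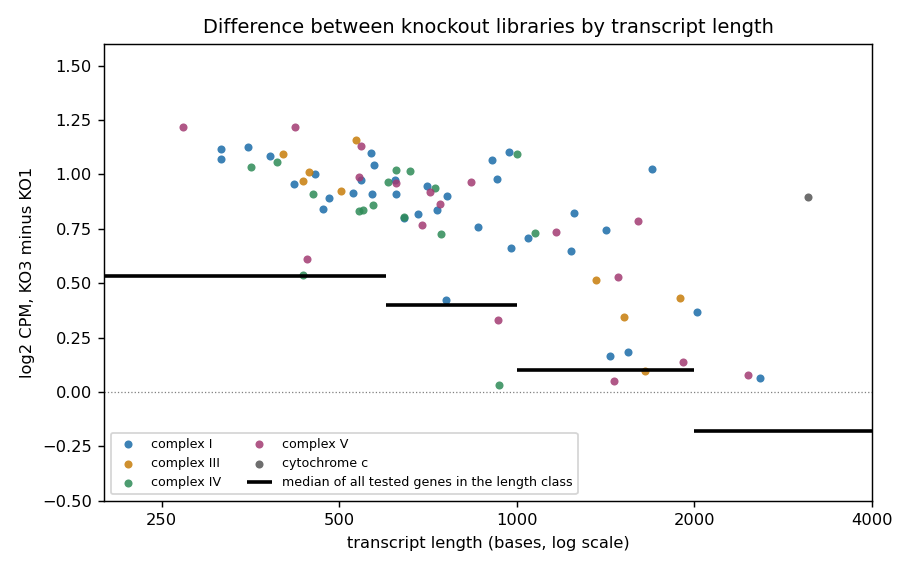
Each point is a tested member, with transcript length in bases on a log scale (horizontal axis) and log2 CPM in KO3 minus log2 CPM in KO1 (vertical axis), coloured by complex; black lines are the medians of all tested genes in each length class. Members run from 0.03 to 1.22 and mostly lie above the line of their class, which falls from 0.53 under 600 bases to -0.18 from 2000 to under 4000 bases.

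Leaving out KO1 or KO3 moved the counts of calls in opposite directions. Without KO1, 44 members were called higher and 7 lower, against 32.9% and 32.6% of all genes tested, and the median log2 fold change was 0.28. Without KO3, 7 were called higher and 15 lower, against 27.9% and 28.9%, and the median was -0.11. Calls that held under both omissions and in all other fits tried were the rises of Ndufa4l2, Cox6b2, Atp5s, Ndufv3, Ndufc2 and Cox7a2l and the falls of Cox8a and Uqcrq.

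All 4 complexes showed the library pattern. The median log2 fold change was 0.14 over 35 tested subunits of complex I, -0.0017 over 9 of complex III, 0.03 over 15 of complex IV and 0.05 over 15 of complex V. Over all genes tested 27.9% were called higher and 27.8% lower. Among the subunits, calls higher and lower were 3 and 5 in complex I and 3 and 1 in complex IV. Complex III had 1 call, lower, and complex V had none, as set out below. The medians of the complexes turned on single knockout libraries, and the calls on single libraries of either group. Without KO1 the medians of complexes I, III, IV and V were 0.34, 0.18, 0.26 and 0.28, and without KO3 they were -0.10, -0.21, -0.21 and -0.10. Calls in complex I were 20 higher and 5 lower without KO1 (32.9% and 32.6% of all genes tested). They were 2 and 0 without KO2 (24.4% and 22.7% of all genes tested), and 2 and 8 without KO3 (27.9% and 28.9%). Without WT1 they were 2 and 2 (24% and 22.1%). Without WT2 they were 2 and 0 (23.4% and 23%), and likewise 2 and 0 without WT3 (24.6% and 24%). In complex III they were 4 and 1 without KO1 and 0 and 2 without KO3, and in complex IV 8 and 1 without KO1 and 3 and 3 without KO3. The median KO3 minus KO1 was 0.91 in complex I, 0.92 in complex III, 0.91 in complex IV and 0.87 in complex V. In KO1 the complex medians ran from -0.54 (complex IV) to -0.31 (complex III), and in KO3 from 0.38 (complex III) to 0.51 (complex I). These medians leave out Cox7a2l, Atp5s and Atp5sl, which match the naming rule but encode assembly or accessory factors, and they place Ndufa4 and Ndufa4l2 with complex IV.

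**Figure D3:**
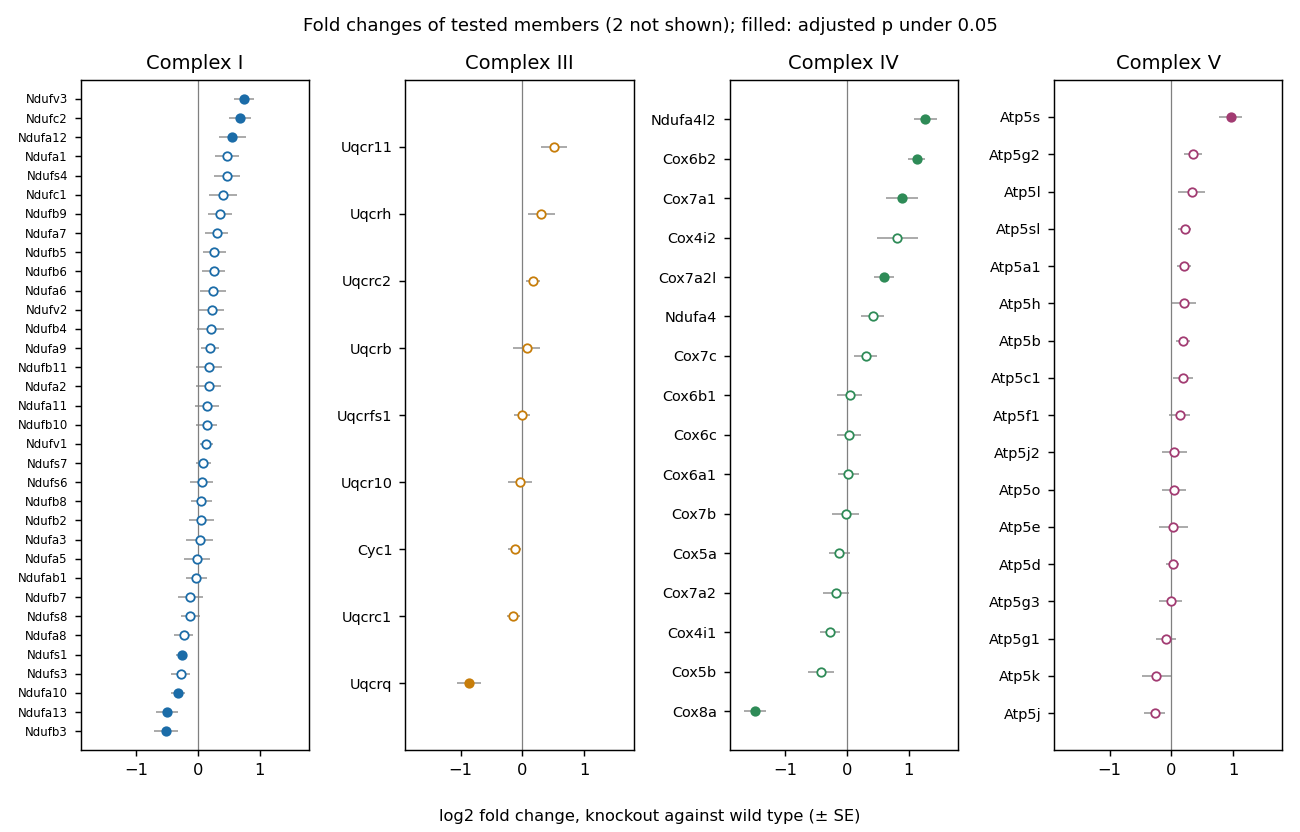
Log2 fold change, knockout against wild type, with its standard error (horizontal axis) for the tested members, in 1 panel per complex with genes ranked by fold change; filled points passed an adjusted p of 0.05 and open points did not, Cox7a2l is drawn with complex IV and Atp5s and Atp5sl with complex V, and Cycs and 1 other member are not drawn. Cox8a at -1.48 and Ndufa4l2 at 1.27 are the extremes, and no subunit of complex V is filled.

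Within complex I, the 7 core subunits, which carry the flavin, the iron-sulfur clusters and the quinone site, had a median log2 fold change of -0.12. Ndufs1, the largest iron-sulfur subunit of the peripheral arm, measured 239, 235 and 257 CPM in wild type and 197, 207 and 206 in the knockout. The knockout libraries were all below wild type and close to each other, with a log2 fold change of -0.26 (SE 0.092, adjusted p = 0.0320). Its KO3 minus KO1 of 0.07 was among the smallest of the members, and its transcript, at 2590 bases, was among the longer ones. The call was lost when any wild-type library or KO2 was left out and with total counts as library sizes, with an adjusted p of up to 0.269 over all settings.

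The 28 tested accessory subunits of complex I had a median log2 fold change of 0.18. Of these 3 were called higher and 3 lower, against 27.9% and 27.8% of all genes tested. Ndufv3 (chromosome 17), a small subunit of the NADH-oxidising module, measured 54.3, 60.0 and 57.7 CPM in wild type and 70.3, 96.1 and 122 in the knockout. All knockout libraries were above wild type, with a log2 fold change of 0.75 (SE 0.17, adjusted p = 0.00307). Ndufc2 (chromosome 7), a subunit of the membrane arm, measured 52.6, 54.7 and 60.7 CPM against 63.0, 95.2 and 113. It too was without overlap, by a small margin in KO1, with a log2 fold change of 0.69 (SE 0.18, adjusted p = 0.00674). Ndufa12 (chromosome 10), which is also attached to the NADH-oxidising module, measured 62.4, 76.0 and 75.1 CPM against 65.2, 109.6 and 139.7. KO1 lay within the wild-type range, and the log2 fold change of 0.56 (SE 0.22, adjusted p = 0.0497) was lost when any library other than KO1 was left out, with scaling by DESeq2 size factors and with limma-voom, reaching an adjusted p of 0.229.

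The 3 accessory falls were smaller. Ndufa10 (chromosome 1), a nucleoside-kinase-like subunit of the membrane arm, measured 143, 148 and 163 CPM in wild type and 107, 117 and 138 in the knockout, without overlap (log2 fold change -0.33, SE 0.11, adjusted p = 0.0297). Ndufa13 (chromosome 8), also known as GRIM-19, measured 82.8, 93.0 and 98.2 CPM against 47.4, 62.9 and 83.9, with KO3 within the wild-type range (-0.50, SE 0.17, adjusted p = 0.0300). Ndufb3 (chromosome 1), a small membrane-arm subunit, measured 47.7, 53.2 and 60.1 CPM against 26.4, 37.5 and 49.3, with KO3 again inside (-0.52, SE 0.19, adjusted p = 0.0378). The call of Ndufa10 was lost without any wild-type library or without KO2, and those of Ndufa13 and Ndufb3 without WT2, WT3 or KO2. All 3 were lost with total counts as library sizes, and that of Ndufb3 also with a filter of a mean of at least 1 CPM, with adjusted p up to 0.128 for Ndufa10, 0.105 for Ndufa13 and 0.128 for Ndufb3. Ndufa13 shares exon sequence on the opposite strand with Tssk6, which fell by 1.49 on the log2 scale (adjusted p = 0.000111), and without a stated strand setting their reads cannot be told apart.

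Among the uncalled complex I genes, Ndufa1 (0.47, SE 0.20, adjusted p = 0.0658) and Ndufs4 (0.47, SE 0.20, adjusted p = 0.0709) had the largest fold changes. Both encode subunits whose loss causes human complex I deficiency. Per kilobase of transcript, wild-type levels among the tested complex I genes ran from 17.8 ± 1.69 CPM for Ndufab1, the mitochondrial acyl carrier protein, to 239 ± 18.7 CPM for Ndufa7 (SD, n = 3). Neither was called, with log2 fold changes of -0.03 and 0.31.

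Complex III held 1 called member. Uqcrq (chromosome 11), a small subunit at the ubiquinone-binding side, measured 16.9, 16.3 and 15.7 CPM in wild type and 6.27, 8.93 and 11.97 in the knockout. All 3 knockout libraries were below wild type, although the libraries differed among themselves, and the log2 fold change was -0.87 (SE 0.19, adjusted p = 0.00267). Uqcrq was also the complex III subunit with the lowest wild-type level per kilobase, 32.3 ± 1.19 CPM. Uqcrh, the hinge protein that docks cytochrome c, had the highest at 305 ± 25.4 CPM and a log2 fold change of 0.31 (SE 0.21, adjusted p = 0.239). The largest uncalled change was in Uqcr11, another small subunit, at 0.51 (SE 0.21, adjusted p = 0.0561).

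Of the 4 core genes of complex III 0 were called, against 27.9% higher and 27.8% lower over all genes tested. Cycs, which is not a subunit of that complex, was not called either. Cyc1, the cytochrome c1 subunit, measured 149, 157 and 155 CPM in wild type and 127, 135 and 161 in the knockout. KO3 exceeded wild type and the other knockout libraries fell short of it (-0.12, SE 0.11, adjusted p = 0.346). Cycs, the soluble cytochrome c that also takes part in apoptosis, measured 165, 182 and 206 CPM against 155, 237 and 288. Here KO1 lay below and KO2 and KO3 above wild type (0.30, SE 0.19, adjusted p = 0.203). The 4 core genes of complex III had a median KO3 minus KO1 of 0.39, and the 5 accessory genes, whose transcripts are shorter, 1.01.

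Complex IV held the largest changes of the whole set. Cox8a (chromosome 19), the general isoform of the smallest subunit, measured 154, 167 and 168 CPM in wild type and 41.2, 60.0 and 73.6 in the knockout. Every knockout library was below every wild-type library, a 2.80-fold fall (log2 fold change -1.48, SE 0.17, adjusted p = 3.82e-05), and over the settings tried the log2 fold change stayed between -1.70 and -1.28. The alternative isoforms of this subunit, Cox8b and Cox8c, were at the low counts given above. The other 10 general isoforms of complex IV were not called, and the median of all 11 was -0.02.

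The called isoforms typical of particular tissues or conditions, Cox6b2, Cox7a1 and Ndufa4l2, rose. Of 8 such genes 4 were tested, and these 4 are the ones with enough counts, so the median of 1.02 on the log2 scale stands for them only. Cox6b2 (chromosome 7), the testis isoform of subunit 6B, measured 13.8, 15.1 and 13.4 CPM in wild type and 25.0, 31.7 and 36.3 in the knockout. The groups did not overlap, and the 2.19-fold rise had an adjusted p of 5.28e-05 in edgeR's test (log2 fold change 1.13, SE 0.14). Its general counterpart Cox6b1 was at 129, 144 and 148 CPM against 92.6, 152 and 189, with a log2 fold change of 0.04 (adjusted p = 0.865). Per kilobase, Cox6b2 stood at 32.4 ± 2.06 CPM in wild type and Cox6b1 at 396 ± 28.4.

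Cox7a1 (chromosome 7), the isoform of heart and skeletal muscle, measured 4.17, 6.19 and 6.61 CPM in wild type and 6.52, 11.8 and 13.7 in the knockout. KO1 lay within the wild-type range, and the log2 fold change of 0.90 (SE 0.26, adjusted p = 0.0126) was no longer called without WT1 or without KO2 (adjusted p up to 0.0624). The summed muscle markers ran from 99.0 to 109.9 CPM in wild type and from 45.2 to 53.1 in the knockout. Most of this sum is Ttn (mean 74.0 to 26.5 CPM) and Des (26.6 to 17.0). With 2 of the 5 tested called in each direction, Ttn (-1.48) and Des (-0.65) were lower and Acta1 (3.18) and Myh6 (1.64) higher. Cox7a2, the general counterpart of Cox7a1, was not called (-0.18, SE 0.20, adjusted p = 0.483). The related Cox7a2l (chromosome 17), a factor that links complexes III and IV into supercomplexes, measured 146, 154 and 167 CPM against 178, 236 and 296. All knockout libraries were above wild type (0.60, SE 0.16, adjusted p = 0.00792).

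Ndufa4l2 (chromosome 10), known as a target induced by low oxygen, measured 1.42, 2.09 and 1.74 CPM in wild type and 4.25, 4.05 and 4.36 in the knockout. The groups did not overlap and the knockout libraries were nearly level, unlike those of almost all other members. The 2.42-fold rise had an adjusted p of 0.000136 in edgeR's test (log2 fold change 1.27, SE 0.18). Ndufa4l2 shares exon sequence on the opposite strand with Shmt2, which fell by 0.59 on the log2 scale (229 ± 5.22 to 152 ± 9.90 CPM, adjusted p = 0.000314). Without a stated strand setting the reads of Ndufa4l2 and Shmt2 cannot be told apart. Ndufa4, the general paralogue, measured 116, 123 and 130.2 CPM against 112, 170.4 and 211 and was not called (0.42, SE 0.18, adjusted p = 0.0741).

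Cox4i2, the isoform of lung and of low oxygen, was at 0.708, 0.502 and 0.966 CPM in wild type and 0.850, 1.43 and 1.70 in the knockout, with overlap (0.82, SE 0.33, adjusted p = 0.0569). It had the lowest wild-type level per kilobase among the tested complex IV genes, 0.998 ± 0.320 CPM. Cox4i1, the general isoform, had the highest at 727 ± 52.9 CPM. Cox4i1 measured 499, 551 and 576 CPM in wild type and 339, 448 and 561 in the knockout (-0.27, SE 0.16, adjusted p = 0.182). In the other paralogue pairs the general isoforms were not called either, with Cox6a1 at 0.02 and Cox7b at -0.02 on the log2 scale.

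**Figure D4:**
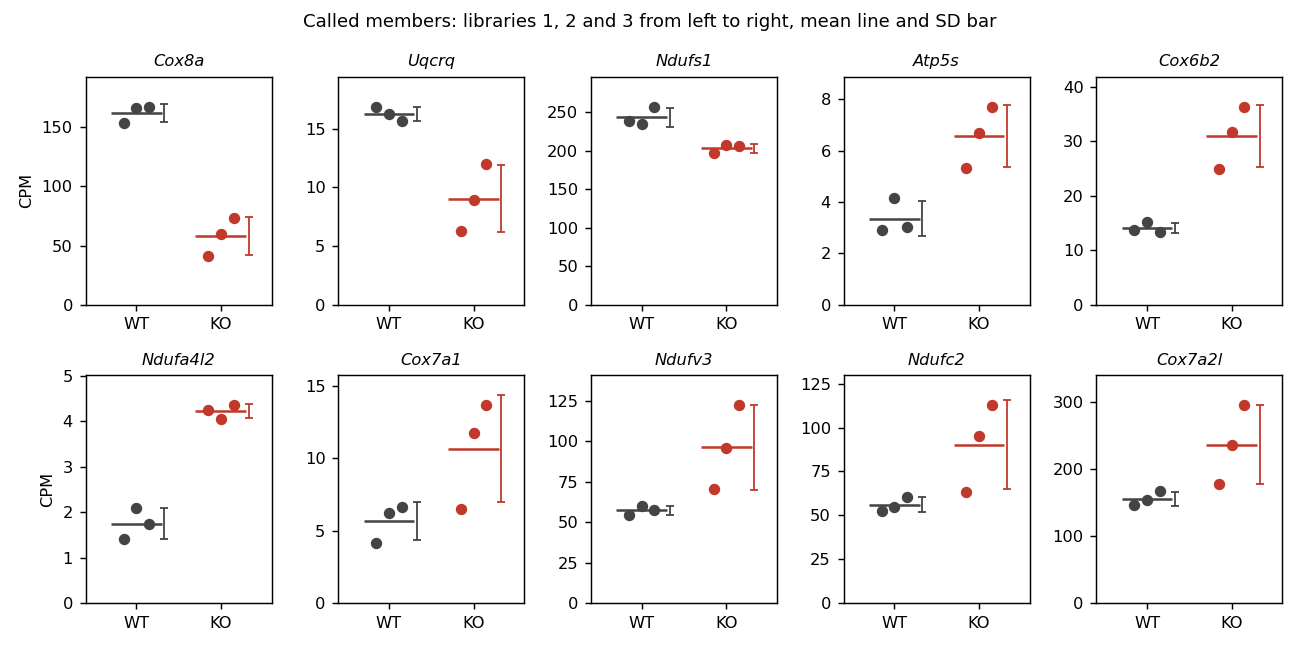
CPM (vertical axis, from 0) of 10 called members in the wild-type (WT) and knockout (KO) libraries; points are libraries 1, 2 and 3 from left to right, horizontal lines the means and bars the SD (n = 3). Cox8a lies between 154 and 168 CPM in wild type and between 41.2 and 73.6 in the knockout, Ndufa4l2 is nearly level within the knockout at 4.05 to 4.36, and the knockout libraries of Ndufv3 run from 70.3 to 122.

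In complex V, 0 of 15 tested subunits were called in edgeR's test. At an unadjusted p under 0.05 there was 1, Atp5g2, which DESeq2's Wald test also called higher, while limma-voom called 0. Without KO1, 9 of the 15 were called higher and 0 lower, where 32.9% and 32.6% of all genes tested were called. Without KO3, 0 were called higher and 2 lower, against 27.9% and 28.9%. With total counts as library sizes 3 were higher and 0 lower, against 34.1% and 20.7%. With the replicate number as a block there were 2 in each direction, against 31.2% each. With the length and GC trend removed there was 1 in each direction, against 28.9% and 37.6%, and with both together there were 1 higher and 3 lower, against 29.9% and 39.4%. Atp5b, the catalytic beta subunit and the most abundant of the set per kilobase at 1149 ± 66.5 CPM in wild type, measured 2069, 2215 and 2322 CPM in wild type and 2425, 2432 and 2670.4 in the knockout. Atp5a1, the alpha subunit, measured 1213, 1245 and 1348 CPM against 1445, 1429 and 1527. Both were without overlap between the groups, but the changes of 0.19 (SE 0.12, adjusted p = 0.200) and 0.21 (SE 0.11, adjusted p = 0.128) were not called.

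The c ring of complex V is encoded by 3 genes for the same mature protein. Atp5g1 measured 179, 192 and 196 CPM in wild type and 133, 175 and 226 in the knockout, and Atp5g3 had a log2 fold change of -0.01 (SE 0.19, adjusted p = 0.983). Atp5g2 had the largest uncalled change of complex V at 0.35 (SE 0.15, adjusted p = 0.0602), ahead of the membrane subunit gene Atp5l at 0.33 (SE 0.22, adjusted p = 0.237). Atp5j, a peripheral stalk subunit, had the lowest wild-type level of the complex per kilobase, 89.2 ± 3.96 CPM (-0.27, adjusted p = 0.214). The 5 F1 genes had a median KO3 minus KO1 of 0.33, against 0.91 for the peripheral stalk, 0.77 for the c ring and 1.13 for the membrane subunits.

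Atp5s (chromosome 12), named as a coupling factor of ATP synthase, is not a subunit of the complex. It measured 2.91, 4.14 and 3.01 CPM in wild type and 5.32, 6.67 and 7.71 in the knockout, without overlap, a 1.95-fold rise (log2 fold change 0.96, SE 0.19, adjusted p = 0.00134). Its relative Atp5sl, an assembly factor of complex I in spite of its name, was at 28.96, 30.6 and 33.3 CPM against 36.3, 33.9 and 37.6. The groups did not overlap, and the change of 0.21 (SE 0.10, adjusted p = 0.0864) was not called.

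Genes that serve the same complexes moved in both directions. Of the 4 subunits of complex II, succinate dehydrogenase, which is encoded by nuclear genes alone, Sdhc was called lower (152.8 ± 14.6 to 118.7 ± 12.8 CPM; -0.37, SE 0.11, adjusted p = 0.0174). Sdha, Sdhb and Sdhd were not called, at 0.07, 0.13 and 0.11. Of 14 tested assembly factors of complex I, 4 were called higher and 3 lower. Acad9 (0.59, adjusted p = 0.000256), Timmdc1 (0.56, adjusted p = 0.000332) and Nubpl (0.77, adjusted p = 0.000396), which act in building the membrane and peripheral arms, had the smallest adjusted p in edgeR's test.

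Of 19 tested assembly factors of complex IV, 5 were called higher and 6 lower. Cox20, a chaperone of the newly made subunit 2, fell from 57.1 ± 1.88 to 22.2 ± 2.68 CPM (-1.36, SE 0.11, adjusted p = 2.58e-06), a fall close in size to that of Cox8a, with 20.3, 25.3 and 21.1 CPM in KO1, KO2 and KO3. Coa5 (-0.56, adjusted p = 0.000480) and Fastkd2 (-0.63, adjusted p = 0.000609) also fell. Cox20, Coa5 and Fastkd2 all lie on chromosome 1, while the other called falls in this list, Cox10, Cox15 and Cox18, lie on other chromosomes. For complex III, Bcs1l, which inserts the Rieske protein, rose (0.30, adjusted p = 0.0351) and Ttc19 fell (-0.31, adjusted p = 0.0380) among 3 tested factors. For complex V, Atpaf2 (-0.39, adjusted p = 0.00553) and Tmem70 (-0.33, adjusted p = 0.0307) fell among 6 tested factors.

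Among 13 tested genes of mitochondrial transcription and DNA replication, 1 was called higher, the mitochondrial topoisomerase Top1mt (0.87, adjusted p = 9.26e-05), and 2 lower, Mterfd2 (-0.64, adjusted p = 0.00135) and the transcription factor Tfb2m (-0.36, adjusted p = 0.0108). Among 10 tested nuclear regulators of respiratory genes, 1 was called higher and 5 lower. Pprc1, a coactivator related to PGC-1, fell from 167.2 ± 11.5 to 66.4 ± 13.4 CPM (-1.33, SE 0.14, adjusted p = 1.73e-05). Yy1 (-0.49, adjusted p = 0.00105) and Gabpb1 (-0.47, adjusted p = 0.00166), a subunit of the GABP factor that binds the ETS core searched above, also fell. Gabpa, which encodes another subunit of GABP, was not called in edgeR's test (0.09, adjusted p = 0.436). Nrf1, whose site was also searched, was called lower (-0.27, adjusted p = 0.0256). The called rise was that of Ppara (1.25, adjusted p = 0.00216), a gene at a low level. It had 24, 15 and 25 counts in wild type and 80, 41 and 33 in the knockout (0.829 ± 0.178 and 1.95 ± 0.493 CPM). The shares called in these lists are read against the 27.9% and 27.8% of all genes tested. Mterfd2 and Tfb2m lie on chromosome 1, as do Sdhc and Tmem70, called lower, and Bcs1l, called higher. Among the members, Ndufa10, Ndufb3 and Ndufs1, called lower, lie there too, as does Cox5b, not called. The part of chromosomal location in these calls was not tested.

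The authors' deposited table listed 82 of the members and called 11 higher and 8 lower at an adjusted p under 0.05, against 45.8% of all genes with an adjusted p in either direction. All 15 members called here were called there with the same sign. The other 4 in the authors' deposited table were Uqcr11, Ndufa1, Ndufs4 and Cox8b.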

How the data were processed

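RNA-seq of 3 wild-type and 3 Sirt6 knockout libraries was used, with columns assigned from their names. The values tested are the deposited raw counts, whole numbers for each gene symbol. The submitters' processing notes name mm9 as the build and, as tools, DESeq2, HTSeq 0.6.1 and TopHat2 2.0.10; the annotation and the strand setting are not named there. The authors' own comparison, per the file headers, gives a base mean (a signal averaged over libraries), log2 fold changes, the Wald score and p-values.

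Counts were tested with edgeR 4.0.16 in R 4.3.3 (filterByExpr, TMM, glmQLFit, glmQLFTest, two-sided, a mean per group). A run on simulated counts used the same dispersion for every gene and no trend with transcript length. It therefore does not cover the shared spread of the members between the knockout libraries. The SE is the size of the log2 fold change divided by the square root of F. Log2 CPM has a prior count of 2. Alternatives used DESeq2 1.42.0 and limma 3.58.1. Lengths, GC and chromosomes came from GENCODE M21 (GRCm38; 21706 rows matched by symbol, 1273 by an older symbol, 387 not) as the lower median over basic coding transcripts. As the deposited counts are on mm9, no gene coordinates are given. Of the members, 15 share exon sequence with another counted gene on the opposite strand. The 6 library pairs within groups differed beyond sampling noise (chi-square over its degrees of freedom from 3.73 to 87.6).

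Members, gene lists and settings were chosen with earlier results of these data known. Named were Sirt6, called members, members under the filter, the extremes per complex in level and uncalled fold change, paralogue families, cytochrome c genes, complex II, and up to 3 called genes per related list. Other genes named (Shmt2, Tssk6, markers at 0, other single markers, further nuclear regulators and exceptions to a count) were chosen after their values were seen. So were Cox5b, Cox10, Cox15 and Cox18, which are named for their chromosome. Of the called members, 1 is counted but not reported here by name.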

Additional observations from a re-analysis of the deposited data

How the results depend on the processing

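Of the members called in the edgeR fit, 8 were higher and 7 lower in the knockout. Scaling by total counts, which moved the median of all genes by 0.126 on the log2 scale, gave 20 higher and 2 lower, against 34.1% and 20.7% of all genes tested. Without a filter 13 were higher (all genes 23.2%), and DESeq2's Wald test also gave 13 (27.8%). With the length and GC trend removed 16 were lower (37.6%). Requiring an adjusted p under 0.01 left 2 lower (20.9%), and a log2 fold change of at least 1 left 2 higher and 1 lower (12.6% and 9%). Leaving out 1 library at a time gave 6 to 44 higher and 2 to 15 lower; the extremes were KO1 for the rises and KO3 for the falls, and without WT2, WT3 or KO2 each there were 2 lower. With the replicate number as a block, 21 were higher and 13 lower (all genes 31.2% each), and with the block and the trend removed together, a setting chosen after seeing the data, 16 and 23 (29.9% and 39.4%). The labels do not say whether the numbers pair the samples. Deviations of same-numbered libraries correlated over all genes at 0.208, -0.025 and 0.201 for numbers 1, 2 and 3. WT1 with KO3 gave -0.207 and WT3 with KO1 -0.216, and WT2 did not correlate best with KO2. Deviations of the 3 libraries of a group are not independent, so these values do not settle whether the samples are paired. The cause of the changes in calls between settings was not tested. The medians of all members and of each complex moved by less than the spread of the library medians in every setting, with signs that differed between leaving out KO1 and leaving out KO3. No call changed sign. Members under the filter had at most 13 counts in a library, which limits what can be seen in them; with no filter Cox8b was called lower.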
